A study of Homo sapiens with 4 samples.

Results

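The C/EBP transcription factors were followed in 4 RNA sequencing libraries of BEAS-2B, an established cell line from human bronchial epithelium. They were taken as the 6 gene symbols CEBPA, CEBPB, CEBPD, CEBPE, CEBPG and CEBPZ, out of 24424 symbols listed for every library. The cells carried the wild type genotype in all 4 conditions. Control cells were left untreated, and LPS cells received lipopolysaccharide, a component of the outer membrane of Gram-negative bacteria, for 2 hr. WT PDZ+LPS and mut PDZ+LPS cells received a peptide for 24 hr and then LPS for 2 hr. The WT PDZ peptide was built from the first PDZ domain of the tight junction scaffold ZO-1 and joined to a TAT stretch that carries it into cells, and the mut PDZ peptide differs from it by a pair of glycines changed to alanines. Each condition had 1 library, no library was made with a peptide alone, and every condition used the same line.

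C/EBP proteins bind DNA as dimers through a basic leucine zipper (bZIP), and they were named for binding CCAAT boxes and viral enhancer cores. C/EBPβ and C/EBPδ are known as factors of the acute-phase response, where they act with NF-kB on promoters of cytokines such as IL-6. C/EBPα is linked to differentiation and the arrest of cell division, C/EBPε to the maturation of granulocytes, and C/EBPγ to dimers that damp or redirect the others and to amino acid stress. CEBPZ shares the name through binding to a CCAAT box, but it has no leucine zipper and is known from ribosome assembly in the nucleolus. In airway epithelium, C/EBPα, C/EBPβ and C/EBPδ have been tied to the expression of secretory and defence genes.

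In these libraries, CEBPD was 4.36-fold higher in LPS than in Control and CEBPB was 1.49-fold higher. CEBPG and CEBPZ were 1.09-fold and 1.10-fold higher, CEBPA had 18 to 23 counts in each library, and CEBPE had no count. WT PDZ+LPS was close to LPS, at 1.07-fold for CEBPB and 0.945-fold for CEBPD. The mut PDZ+LPS library was higher than LPS in CEBPD (1.79-fold) and CEBPB (1.59-fold), and after correcting for the length and GC content of transcripts these folds were 1.22 and 1.13. No fold has a replicate check, since each condition had 1 library. Intervals given are 95% Clopper-Pearson intervals of the counts in a pair of libraries, which cover counting error alone and compare libraries, not conditions.

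Promoter sequences are shown first, because C/EBP factors are known to act through short motifs near gene starts. Whether they acted on these promoters was not measured. Promoters were the 250 bases before the start in RefSeq (GRCh38.p14), whereas the reads had been mapped to hg19. They were searched for 5 of the 6 members (CEBPA, CEBPB, CEBPE, CEBPG and CEBPZ), and the promoter of CEBPD was not analysed here. The motifs searched on both strands were TTGCNNAA for C/EBP, GGNNTTTCC for NF-kB, TGACG for the core of the cAMP response element (CRE), TATAAA for the TATA box and CCAAT for the CCAAT box. Of 35116 promoters of this length, 9.05% held the C/EBP letters, 5.48% the NF-kB letters, 21.2% the CRE core, 10.7% the TATA box and 32% the CCAAT box. Capitals mark a match, and overlapping matches run together. The members shown are CEBPB, at chr20:50190580-50190829 on the plus strand, and CEBPG, at chr19:33373459-33373708 on the plus strand, each at 1 of its 2 listed starts.
CEBPB: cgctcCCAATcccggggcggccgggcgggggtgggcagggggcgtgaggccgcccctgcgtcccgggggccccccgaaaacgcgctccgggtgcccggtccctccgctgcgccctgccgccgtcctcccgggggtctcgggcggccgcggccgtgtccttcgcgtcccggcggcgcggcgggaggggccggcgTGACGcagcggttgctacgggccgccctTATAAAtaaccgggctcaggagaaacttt
CEBPG: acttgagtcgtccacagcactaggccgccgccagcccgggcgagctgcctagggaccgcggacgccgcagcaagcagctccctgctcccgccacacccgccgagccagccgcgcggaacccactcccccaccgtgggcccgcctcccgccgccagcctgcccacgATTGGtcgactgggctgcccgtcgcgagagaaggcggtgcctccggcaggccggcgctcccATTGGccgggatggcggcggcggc
The CEBPB window held a CCAAT box at -245, a CRE core at -57 and a TATA box at -29, counted to the first base of the match from the start. The CEBPG window held CCAAT boxes on the minus strand at -85 and -24. At the other listed start of CEBPB and of CEBPG, the window held none of the motifs searched. None of these 5 members, which do not include CEBPD, held the C/EBP or the NF-kB letters in this window.

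From the inflammatory and acute-phase target list described further on, 4 genes are shown that were higher in LPS and held the C/EBP letters. They are IL6, a cytokine of fever and the acute phase, at chr7:22726950-22727199 (plus strand), IL1B, the precursor of interleukin-1β, at chr2:112836780-112837029 (minus strand), PTX3, a soluble pattern recognition protein, at chr3:157436600-157436849 (plus strand), and LCN2, a protein that binds bacterial iron carriers, at chr9:128149203-128149452 (plus strand).
IL6: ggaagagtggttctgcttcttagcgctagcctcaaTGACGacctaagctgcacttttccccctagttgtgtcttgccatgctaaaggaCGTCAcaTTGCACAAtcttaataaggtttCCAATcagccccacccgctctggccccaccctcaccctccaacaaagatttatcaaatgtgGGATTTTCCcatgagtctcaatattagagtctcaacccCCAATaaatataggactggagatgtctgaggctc
IL1B: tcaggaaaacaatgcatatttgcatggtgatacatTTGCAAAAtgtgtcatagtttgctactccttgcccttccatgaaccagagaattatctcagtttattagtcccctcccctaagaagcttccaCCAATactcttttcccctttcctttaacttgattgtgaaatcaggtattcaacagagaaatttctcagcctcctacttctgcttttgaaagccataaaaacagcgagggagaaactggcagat
PTX3: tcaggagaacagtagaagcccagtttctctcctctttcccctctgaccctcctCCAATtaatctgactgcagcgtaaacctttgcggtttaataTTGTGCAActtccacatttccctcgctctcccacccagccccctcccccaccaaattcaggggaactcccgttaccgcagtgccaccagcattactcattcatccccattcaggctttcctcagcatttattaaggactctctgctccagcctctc
LCN2: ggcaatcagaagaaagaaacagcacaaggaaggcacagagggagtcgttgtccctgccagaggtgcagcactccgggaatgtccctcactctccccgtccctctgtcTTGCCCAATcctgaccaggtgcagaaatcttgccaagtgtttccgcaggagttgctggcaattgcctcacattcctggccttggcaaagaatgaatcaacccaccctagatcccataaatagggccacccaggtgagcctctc
The C/EBP letters began at -155 in IL6, -215 in IL1B, -156 in PTX3 (minus strand) and -143 in LCN2, where they overlap a CCAAT box. FGB, the gene of the list that was lower in LPS, held them too, at -101 and -132 from its listed starts. CCL20, the gene of the list with the largest fold, held none of them but held the NF-kB letters at -79. IL6 also held the NF-kB letters at -72. In this list, 7 of the 16 genes with a promoter held the C/EBP letters (43.8%) and 5 held the NF-kB letters (31.2%). The list was written from known C/EBP targets, so its share of C/EBP matches is no independent evidence. A match describes letters and is not a measured site.

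Control held 24823347 counts, LPS held 25155647, WT PDZ+LPS held 23446600 and mut PDZ+LPS held 19682929, and 18894 symbols had a count in at least 1 of them. Normalized counts were the deposited counts divided by size factors (Control 1.15, LPS 1.06, WT PDZ+LPS 0.990, mut PDZ+LPS 0.851). All 6 epithelial markers were counted in every library, with a sum of 29333 to 42668 normalized counts and the highest sum in mut PDZ+LPS. Most of that sum came from KRT8 (21612) and KRT18 (18874), which like KRT5 were highest in mut PDZ+LPS. KRT19 was highest in Control and EPCAM in WT PDZ+LPS. CDH1 was lowest in mut PDZ+LPS (362) and highest in WT PDZ+LPS (620). The leukocyte markers summed to 727 to 888, nearly all from CD68 and CD14, and the defining PTPRC was at 0 in every library. The fibroblast, endothelial, hepatocyte and adipocyte markers summed to at most 447, 14.1, 7.05 and 13.2 normalized counts. In bulk RNA, more cells expressing a gene and more RNA per cell cannot be told apart. The mut PDZ+LPS library differed from LPS by transcript length and by GC content. Across 12107 genes that averaged 16 or more normalized counts and had a length in GENCODE 29, Spearman's rho of the log2 fold change with length was -0.60 in mut PDZ+LPS/LPS, against 0.16 in LPS/Control and 0.075 in WT PDZ+LPS/LPS. The cause of this trend was not tested. Genes are not independent replicates, so these values describe the libraries and carry no p.

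CEBPD, the member known for its fast and strong rise in the acute phase, had the widest range between libraries. Control held 1727 normalized counts of it, LPS held 7524, WT PDZ+LPS held 7110 and mut PDZ+LPS held 13483. All 3 libraries with LPS lay above Control, LPS and WT PDZ+LPS lay close together, and mut PDZ+LPS stood above both. CEBPD was 4.36-fold higher in LPS than in Control (counting interval 4.15 to 4.58), a log2 fold change of 2.12. This placed it at rank 157 from the highest among 13277 genes. A gene was called higher or lower at a difference of at least 2-fold with at least 16 normalized counts in at least 1 of the 2 libraries compared. Of the 5 members that passed this expression rule in LPS/Control, CEBPD was the 1 called, and it was higher. In the same comparison 4.87% of genes were called, made up of 3.46% higher and 1.41% lower.

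CEBPB, which encodes the C/EBPβ isoforms and is also controlled through translation and phosphorylation, had the highest level per length of the members in Control. Its normalized count was 4433 for Control, 6589 for LPS, 7018 for WT PDZ+LPS and 10506 for mut PDZ+LPS. Control was lowest and mut PDZ+LPS highest, as for CEBPD, over a narrower range. The fold in LPS/Control was 1.49 (1.43 to 1.54), below the threshold of 2, at rank 908 of 13277 genes. Protein isoforms and their activity were not measured by these counts.

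**Figure D1:**
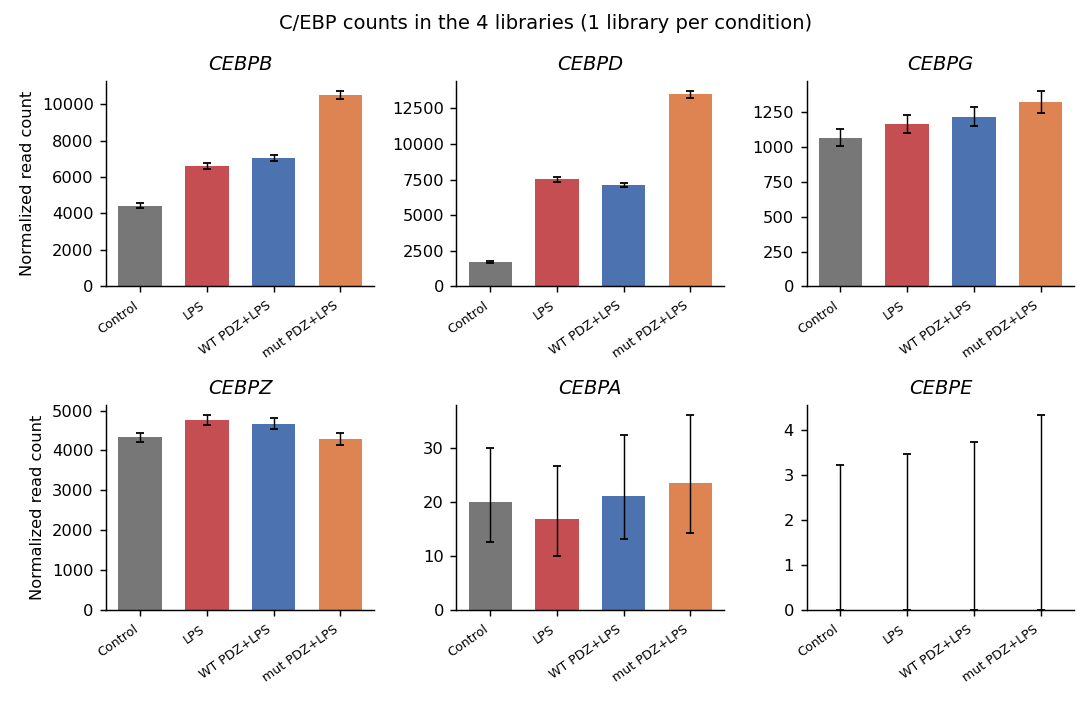
Normalized read counts (y axis, from 0, with its own scale for each gene) of the 6 C/EBP members in the 4 libraries, as bars with 95% counting intervals of single libraries. CEBPD rises from 1727 in Control to 7524 in LPS and 13483 in mut PDZ+LPS, CEBPG and CEBPZ are nearly level, and CEBPE is at 0 in all 4.

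CEBPG, the partner that lacks an activation domain of its own, was nearly level. Its normalized count was 1068 for Control, 1163 for LPS, 1217 for WT PDZ+LPS and 1324 for mut PDZ+LPS. The order was that of CEBPB, but the whole range was 1.24-fold (mut PDZ+LPS/Control, 1.14 to 1.35). The fold in LPS/Control was 1.09 (1.01 to 1.18), with a lower bound of the interval close to 1. Scaling by total counts turned this log2 fold change from 0.12 to -0.0086, so its direction depends on the scaling.

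CEBPZ, the ribosome assembly factor, varied little between libraries. Control held 4328 normalized counts, LPS held 4768, WT PDZ+LPS held 4673 and mut PDZ+LPS held 4288. Here LPS was highest and mut PDZ+LPS lowest, an order that no other member showed. The fold in LPS/Control was 1.10 (1.06 to 1.15). CEBPZOS, a short mitochondrial protein gene that overlaps CEBPZ on the other strand in GENCODE 29, had 1260, 1129, 1132 and 1348 normalized counts in the same order of libraries. CEBPZOS was lowest in LPS, where CEBPZ was highest. The ratio of CEBPZ counts to CEBPZOS counts was 3.43 for Control, 4.22 for LPS, 4.13 for WT PDZ+LPS and 3.18 for mut PDZ+LPS. Whether the counting used the strand is not given in the sources used here, so reads of the pair cannot be told apart where they overlap.

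CEBPA, a factor of differentiated lung epithelium, was counted 23 times for Control, 18 for LPS, 21 for WT PDZ+LPS and 20 for mut PDZ+LPS. These few counts did not separate the libraries. A difference was not detectable at this depth, with a fold in LPS/Control of 0.846 (0.430 to 1.64). CEBPA-AS1, the antisense neighbour of CEBPA, had 23, 21, 17 and 14 counts. CEBPB-AS1, antisense to CEBPB, had 20, 14, 15 and 12 counts. CEBPE, the granulocyte member, had 0 counts in every library. A count of 0 allows up to 3 counts, which is 0.121 CPM for Control, 0.119 for LPS, 0.128 for WT PDZ+LPS and 0.152 for mut PDZ+LPS, where CPM scales counts to a common library total.

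Levels were compared between members as CPM per kilobase of the longest GENCODE 29 transcript. In Control the order was CEBPB at 105, CEBPZ at 57.9, CEBPD at 36.7, CEBPG at 12.0, CEBPA at 0.352 and CEBPE at 0. In LPS, CEBPD reached 146 and CEBPB 142, ahead of CEBPZ at 58.2 and CEBPG at 12.0. The leading pair did not differ beyond counting error in LPS, with a ratio of levels of 1.03 (0.993 to 1.06). CEBPD stood at 138 and CEBPB at 152 in WT PDZ+LPS, and at 268 and 232 in mut PDZ+LPS. The place of CEBPD in these orders depends on its assumed length, which is 2178 nt in GENCODE 29 and 1252 nt in RefSeq. With 1252 nt its level in Control was 63.8, above that of CEBPZ. With RefSeq spans, the ratio of the level of CEBPD to that of CEBPB was 0.656 for Control, 1.92 for LPS, 1.71 for WT PDZ+LPS and 2.16 for mut PDZ+LPS.

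The ratio of CEBPD counts to CEBPB counts was 0.390 (0.370 to 0.410) for Control, 1.14 (1.11 to 1.18) for LPS, 1.01 (0.980 to 1.05) for WT PDZ+LPS and 1.28 (1.25 to 1.32) for mut PDZ+LPS. The intervals of the 4 libraries did not overlap. The step from LPS to mut PDZ+LPS differed between the corrections for length and GC content, and the part of the length trend in it was not tested. CEBPD was above CEBPB there in log2 fold change as counted (0.84 and 0.67) and after the correction with GENCODE 29 lengths (0.29 and 0.18). It was below CEBPB once corrected with RefSeq spans (0.088 and 0.21), a version added after seeing the data. Of the summed levels of the 5 bZIP members, CEBPD made up 23.8% in Control and 48.6% in LPS with GENCODE 29 lengths. CEBPB went from 68.1% to 47.4% and CEBPG from 7.81% to 3.98%, while the summed level went from 154 to 301 CPM per kilobase.

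**Figure D2:**
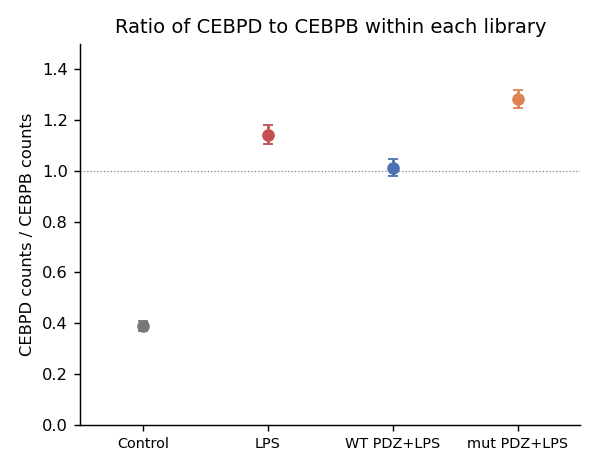
Ratio of CEBPD counts to CEBPB counts (y axis, from 0) in each of the 4 libraries (x axis), with 95% counting intervals and a dotted line at 1. The ratio is 0.390 in Control, and 1.14 in LPS, 1.01 with the WT PDZ peptide and 1.28 with the mut PDZ peptide.

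WT PDZ+LPS was set against LPS to see the members after the WT PDZ peptide. None of the 5 members that passed the expression rule was called, where 1.37% of 13236 genes were. CEBPD was 0.945 of its level in LPS (0.915 to 0.976) and CEBPB was 1.07-fold of it (1.03 to 1.10). These differences pass counting error and are in opposite directions, but both are small beside the difference between LPS and Control and have no replicate check. CEBPG and CEBPZ had folds of 1.05 (0.966 to 1.13) and 0.980 (0.942 to 1.02), and a difference was not detectable at this depth. Of the normalized counts that LPS added to Control, WT PDZ+LPS held 92.9% for CEBPD and 120% for CEBPB. Against Control, 1 of 5 members was called in WT PDZ+LPS (CEBPD, 4.12-fold, 3.92 to 4.33), where 4.7% of 13284 genes were called. LPS/Control and WT PDZ+LPS/Control share the Control library, so their values are not independent.

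In mut PDZ+LPS/LPS none of 5 members was called, where 3.95% of 13378 genes were. CEBPD was 1.79-fold higher (1.74 to 1.84), at rank 429, and CEBPB was 1.59-fold higher (1.55 to 1.65), at rank 766. CEBPG was 1.14-fold higher (1.05 to 1.24), CEBPZ was 0.899 of its level in LPS (0.861 to 0.938), and CEBPA gave no detectable difference. The members differed in the make-up of their transcripts. CEBPA, CEBPB and CEBPD are genes of 1 exon with transcripts of 2631, 1956 and 2178 nt and a GC content of 65.9%, 66.2% and 70.0%. CEBPG (4109 nt, 43.9% GC) and CEBPZ (3463 nt, 39.6% GC) have longer transcripts with less GC. With length and GC content corrected for, CEBPD went in log2 fold change from 0.84 to 0.29, CEBPB from 0.67 to 0.18, CEBPG from 0.19 to 0.42 and CEBPZ from -0.15 to -0.027. CEBPG then stood above CEBPD and CEBPB. CEBPB and CEBPD have more GC than 97.7% and 99.6% of the fitted genes, so their correction is read near the end of the fit. Over all fitted genes, rho with GC content went from 0.41 to 0.0038 and rho with length from -0.60 to 0.093. With RefSeq spans in the correction, which was added after seeing the data, CEBPD was at 0.088. The part of the length and GC trend in the difference of the members was not tested beyond this correction.

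**Figure D3:**
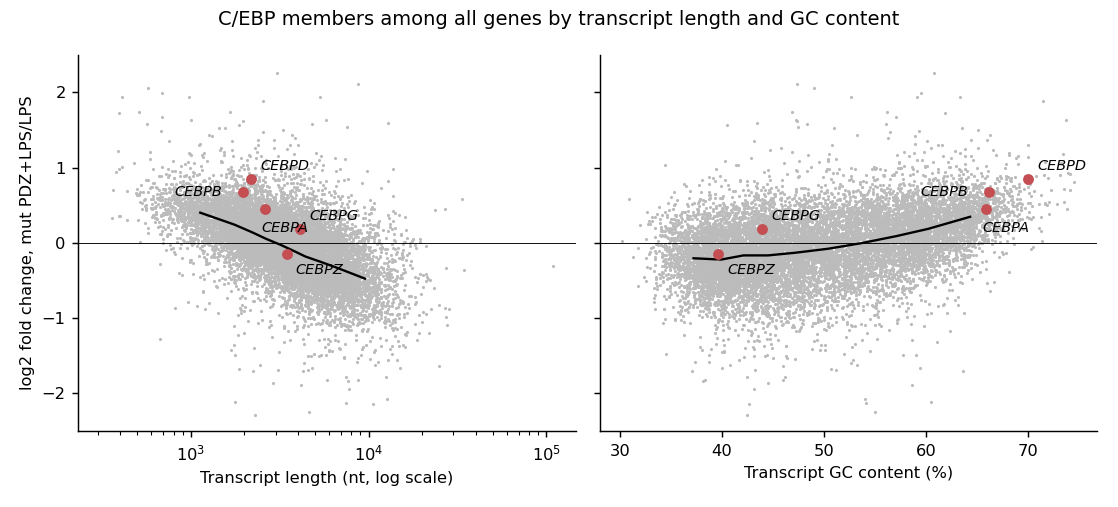
Difference of mut PDZ+LPS from LPS as log2 fold change (y axis) against transcript length (left, log axis) and GC content (right) for 12107 genes in grey, with the medians of equal-sized bins of genes as a line and 5 C/EBP members in red. CEBPB and CEBPD lie among short and GC-rich transcripts, where the median is above 0, and 9 genes lie beyond the axis of 2.5.

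The mut PDZ+LPS/WT PDZ+LPS comparison, which sets the peptides against each other under LPS, gave none of 5 members called, where 4.26% of 13372 genes were. CEBPD had a fold of 1.90 (1.84 to 1.95), just under the threshold, and CEBPB a fold of 1.5 (1.45 to 1.54). After the correction these folds were 1.30 and 1.07. CEBPG had a corrected fold of 1.28 and CEBPZ of 1.01. Against Control, 2 of 5 members were called in mut PDZ+LPS, where 8.09% of 13434 genes were. They were CEBPD at 7.81-fold (7.44 to 8.19) and CEBPB at 2.37-fold (2.29 to 2.45), and the corrected folds were 5.37 and 1.72, the latter below the threshold. CEBPD is thus higher than Control in each library with LPS, before and after the correction.

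**Figure D4:**
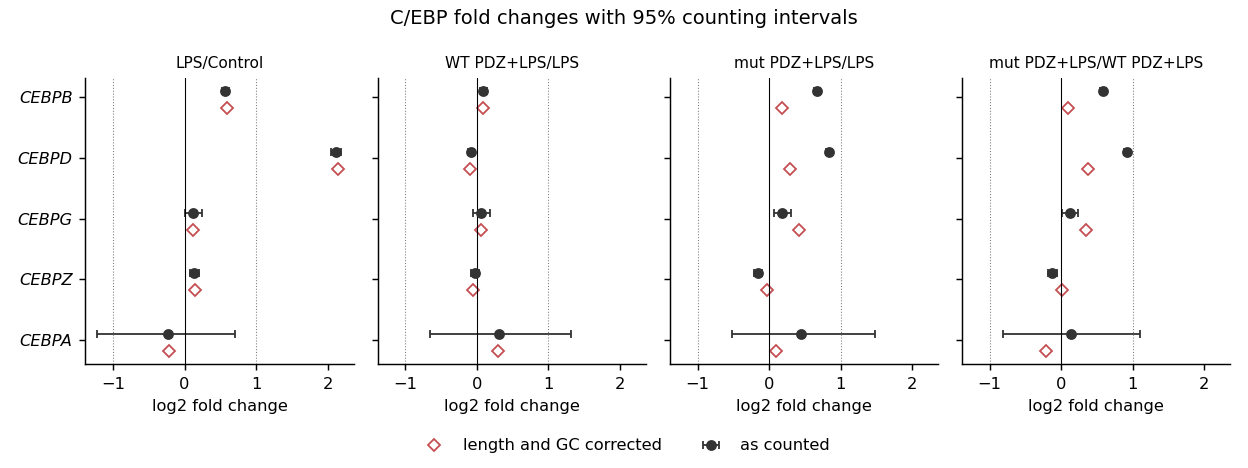
Log2 fold changes (x axis) of 5 C/EBP members (rows) in 4 comparisons, as filled points with 95% counting intervals and as open diamonds once length and GC content were corrected for. Dotted lines mark a 2-fold difference, which CEBPD passes in LPS/Control, and the diamonds of CEBPB and CEBPD in both comparisons of mut PDZ+LPS lie nearer to 0 than the points.

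The bZIP partners are proteins that pair with C/EBP factors or share their sites. Of 15 listed, 14 passed the expression rule in LPS/Control, 2 were called higher, 1 was called lower and 11 were not called, where 3.46% of all genes were higher and 1.41% lower. Their median log2 fold change was 0.18, against -0.0010 over all genes. JUN, a subunit of AP-1, had 821 counts in Control and 2086 in LPS, a 2.75-fold difference (2.53 to 2.98). ATF3, a stress factor that restrains cytokine genes, went from 91 to 213 counts, 2.53-fold (1.97 to 3.27). BATF2, a partner known from interferon responses, had 70 counts in Control and 19 in LPS, a fold of 0.293 (0.167 to 0.493). In mut PDZ+LPS/LPS, 2 of 14 partners were called, both higher, where 3.95% of all genes were called. They were BATF2 and BATF3, on 35 against 19 and 36 against 19 counts. With the correction their log2 fold changes were 0.92 and 0.56, below the threshold of 1. BATF3 was the 1 partner of 14 called in mut PDZ+LPS/WT PDZ+LPS, where 4.26% of all genes were called. It had 36 against 9 counts (4.65-fold, 2.20 to 11.0), with a corrected fold of 2.73. Against Control, 3 of 14 partners were called in mut PDZ+LPS, all higher, where 8.09% of all genes were called. BATF3 was 1 of them, on 36 against 14 counts, at 3.47-fold (1.83 to 6.97), or 2.18-fold with the correction. When set against Control or against WT PDZ+LPS, BATF3 passed the expression rule through mut PDZ+LPS alone. BATF3 was higher in mut PDZ+LPS, so those calls are no support for a difference.

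The regulators were kinases, ubiquitin ligase adaptors and cofactors that act on C/EBP proteins or their mRNA. All 18 passed the expression rule in LPS/Control, 2 were called higher and none lower, where 4.87% of all genes were called, and the median log2 fold change was 0.097 against -0.0010 over all genes. TRIB1, an adaptor that leads C/EBPα to degradation by the ligase COP1, had 437 counts in Control and 1529 in LPS, 3.78-fold higher (3.4 to 4.22). CELF1, an RNA-binding protein that acts on translation of C/EBPβ mRNA, had 5781 and 11126 counts, 2.08-fold higher (2.01 to 2.15). Scaling by total counts or by upper quartiles brought CELF1 under the threshold. None of the 18 regulators was called in WT PDZ+LPS/LPS or in mut PDZ+LPS/LPS, where 1.37% and 3.95% of all genes were called. In mut PDZ+LPS/LPS, 3 of 18 lay above 0. The median log2 fold change there was -0.24 as counted and -0.086 after the correction.

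The inflammatory and acute-phase targets are genes whose promoters C/EBPβ or C/EBPδ are known to bind, most of them also NF-kB targets. Of 27 listed, 4 (ORM1, A2M, DEFB4A and SCGB1A1) were at 0 in every library, and 18 passed the expression rule in LPS/Control. Of these, 11 were called higher, 1 lower and 6 were not called, beside 3.46% and 1.41% of all genes. The genes were listed with earlier results of these data known. Their median log2 fold change was 3.45, or 3.06 with the gene at 0 counts in Control set to its bound. CCL20, a chemokine for lymphocytes and dendritic cells, had 51 counts in Control and 15652 in LPS (332-fold, 252 to 446). PTX3 had 328 and 56367 counts (186-fold, 167 to 208), and CCL2, a chemokine for monocytes, had 99 and 7096 (77.5-fold, 63.5 to 95.5). IL1B rested on 3 counts in Control against 591 in LPS, a ratio of 213 with a wide interval (72.5 to 1035). TNF was at 0 counts in Control against 46 in LPS. With 3 counts taken as the floor for Control, it was at least 16.6-fold higher before counting error in LPS. IL1B and TNF passed the expression rule through LPS alone, the library where they were higher, so their calls are no support for a difference. The count of 11 and the list median include both genes. FGB, the fibrinogen β chain, was the gene called lower, with 91 counts in Control and 28 in LPS (0.333, 0.210 to 0.513). CEBPD, at 4.36-fold, lay between LCN2 (4.23-fold) and IL6 (28.6-fold) of this list. LCN2 had 81 counts in Control and 317 in LPS, and IL6 had 405 and 10725.

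In WT PDZ+LPS/LPS, 1 of 19 targets was called, CRP, on 16 against 6 counts (2.86-fold, 1.06 to 8.93), where 1.37% of all genes were called. CRP passed the expression rule through WT PDZ+LPS alone, the library where it was higher, so this count is no support for a difference. In mut PDZ+LPS/LPS, 1 of 18 was called, FGB, higher on 47 against 28 counts, where 3.95% of all genes were called, and its corrected log2 fold change was 0.93, below the threshold. The list had a median log2 fold change of -0.053 against LPS with the WT PDZ peptide. With the mut PDZ peptide the median was 0.36 as counted and 0.052 after the correction.

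**Figure D5:**
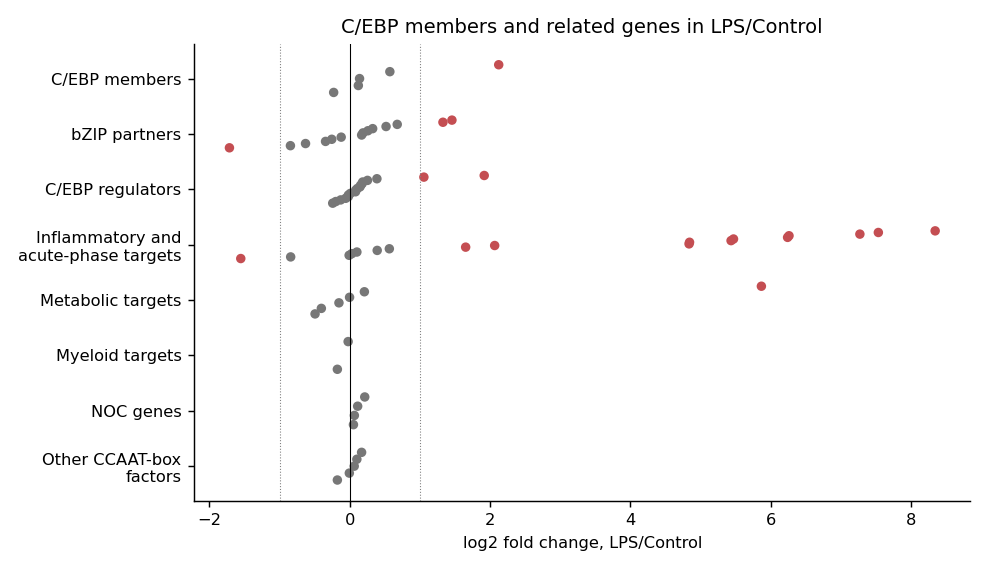
Log2 fold change in LPS/Control (x axis) of the C/EBP members and of 7 lists of related genes (rows), for genes that passed the expression rule, with red points for genes called at 2-fold or more (dotted lines). The inflammatory and acute-phase targets reach 8.34 (CCL20), the metabolic target G0S2 stands at 5.87, and CEBPD at 2.12 is the highest member.

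The metabolic targets are genes of fat and glucose handling on which C/EBPα and C/EBPβ act in liver and fat cells. Of 13 listed, 6 passed the expression rule in LPS/Control and 1 was called, higher, with a list median of -0.078, where 4.87% of all genes were called. This was G0S2, an inhibitor of the triglyceride lipase ATGL, with 17 counts in Control and 978 in LPS (62.2-fold, 38.6 to 107). G0S2 passed the expression rule through LPS alone (14.8 normalized counts in Control), so this call is no support for a difference. In the peptide libraries G0S2 had 952 counts (WT PDZ+LPS) and 1497 counts (mut PDZ+LPS). Of the 13 myeloid targets, 6 were at 0 in every library and 2 passed the expression rule, CSF3R and CD14, neither called. The 4 nucleolar genes listed beside CEBPZ (NOC2L, NOC3L, NOC4L and MYBBP1A) all passed and none was called, with a median of 0.089. The 5 other CCAAT-box factors, among them the NF-Y subunits, all passed and none was called, with a median of 0.064.

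Each member that averaged 100 or more normalized counts had its profile set against those of the other genes among 10859, as the Euclidean distance of centred log2 values over the 4 libraries. Nearest to CEBPD were FDPSP2 (0.23), TWIST1 (0.24) and WFDC2 (0.26). TWIST1, a bHLH factor of mesenchymal cells, had 550, 2561, 2490 and 3809 normalized counts in the order of libraries used above, and CEBPD had its lowest and highest values in the same libraries. FDPSP2 is a pseudogene that can share reads with FDPS and is therefore uncertain. Nearest to CEBPB were GADD45A (0.086), TYMP (0.092) and TNFRSF12A (0.092). GADD45A, a growth arrest and DNA damage gene, had 582, 904, 937 and 1495 normalized counts. Nearest to CEBPG were CD81, SDF4 and SEP15, and nearest to CEBPZ were SUDS3, ASL and NPHP4, all at distances of 0.012 to 0.024. The profiles were not corrected for length and GC content, so their mut PDZ+LPS values hold that trend. With 4 points each, these likenesses describe the libraries and carry no test.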

How the data were processed

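RNA was measured in 4 libraries of BEAS-2B cells, grouped by their labels, with poly(A) selection and paired-end reads. The authors trimmed the reads and mapped them with TopHat to hg19, per the submitters' processing notes, and deposited whole-number read counts per gene symbol without normalization. The counting tool, the annotation and the strand setting are not given in the sources used here. Counts were divided by median-of-ratios size factors (DESeq2 1.42.0, R 4.3.3), and 1 was added before log2. Since each condition had 1 library, no test was run. Intervals are exact binomial at 95% and cover counting error only, because each condition had 1 library. Reads carried no molecular identifiers, so copies of the same molecule could not be told apart in the counts.

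The members and lists were chosen with earlier results of these data known. The genes named were all members, those called in LPS/Control from each list (at most 4 in each direction), any called in WT PDZ+LPS/LPS or mut PDZ+LPS/LPS, the 3 nearest profiles and adjacent transcripts. LCN2 and IL6, the members of the target list beside CEBPD by fold, the genes at 0, CSF3R, CD14, the nucleolar genes and CD68 and PTPRC are named outside this rule, after their values were seen. So are the epithelial markers KRT5, KRT8, KRT18, KRT19, EPCAM and CDH1. The correction removed lowess trends (span 0.3) over length and then GC content of the longest protein-coding GENCODE 29 transcript. Alternatives were TMM and upper-quartile factors (edgeR 4.0.16), total counts, a pseudocount of 5, other thresholds and other orders of the correction, 2 of them (GC content before length, and RefSeq spans) added after seeing the data. The steps were tested on simulated data. Python 3.11.15 ran the remaining steps, with lowess from statsmodels 0.14.6, intervals from scipy 1.17.1, tables from pandas 2.3.3 and numpy 2.4.6, and figures from matplotlib 3.10.9.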

Additional observations from a re-analysis of the deposited data

Results flagged for a closer look

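CEBPD moved in opposite directions after the 2 peptides, each set against the same LPS library. Its log2 fold change was -0.082 in WT PDZ+LPS/LPS, against 0.84 in mut PDZ+LPS/LPS. The difference between these comparisons was not tested, since each condition had 1 library. Once length and GC content were corrected for, the values were -0.097 and 0.29.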

How the results depend on the processing

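Of 130 counts of called genes that were recomputed, 122 stayed within 1.5 times their value. The other 8 concern small lists. At a fold of 1.5, 6 bZIP partners were called in LPS/Control in place of 3, 2 members (CEBPB and CEBPD) were called in mut PDZ+LPS/LPS, while 1 (CEBPD) was called in mut PDZ+LPS/WT PDZ+LPS, both in place of 0. Once corrected for length and GC content, CEBPD and CEBPB had folds of 1.22 and 1.13 against LPS, below 1.5. With WT PDZ+LPS as the base, the corrected fold of CEBPD was 1.30, also below 1.5. At a fold of 3, 1 bZIP partner and 1 regulator were called, and total-count and upper-quartile scaling each left 1 regulator in place of 2. The share of all genes called is given for a fold of 2 alone, so the counts at 1.5 and 3 have no background here. With no expression rule, 2 metabolic targets were called in place of 1. CEBPD was called in LPS/Control under every scaling and correction, with log2 fold changes from 1.99 to 2.17. In LPS/Control, total-count scaling shifted the median over all genes by -0.13.

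Of 150 recomputed fold changes of members, 9 changed sign, 8 of them in comparisons of mut PDZ+LPS. Over the 3 corrections CEBPD ranged from 0.088 to 0.29 in mut PDZ+LPS/LPS and CEBPB from 0.11 to 0.21. No paired analysis was possible because each condition had 1 library, and for the same reason no replicate could be left out. CEBPA and CEBPE were limited by depth.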
